A study of Homo sapiens with 4 samples.

Results

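Sites bound by MEIS proteins were examined at 6 genes of the NR2 group of nuclear receptors, NR2F1, NR2F2, NR2F6, NR2E1, NR2C1 and NR2C2, in cultured hNSC (human neural stem cells). The genes were chosen with the number and strength of MEIS sites in these data already known, so their counts and strengths are given as a description and without a test. A site was assigned to a gene when its summit, the base of highest signal, fell in the gene body or within 500 kb on either side of it. By this rule 38 of the 5169 sites in the list of reproducible MEIS sites lay at the 6 genes, 13 at NR2F1, 14 at NR2F2, 5 at NR2F6, 2 at NR2E1, 3 at NR2C1 and 1 at NR2C2. No site was counted at more than 1 gene.

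The data came from chromatin immunoprecipitation with sequencing (ChIP-seq) of untreated, unmodified hNSC, a commercially supplied culture, with 2 MEIS ChIP samples and 2 Input samples of sheared chromatin that was not precipitated. The ChIP combined an antibody against the A isoforms of MEIS1 and MEIS2 with another against MEIS1, so a peak does not tell which protein was bound. The peak lists held 36796 peaks in replicate 1 and 47449 in replicate 2. Depth is unknown, since peak lists carry no read counts, and expression of the receptors was not measured in these files, nor can the cell type be checked against marker genes here.

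NR2 receptors carry a zinc finger domain that binds direct repeats of AGGTCA-like elements, and several of them are called orphan receptors because no physiological ligand was known when they were found. NR2F1 and NR2F2, also called COUP-TFI and COUP-TFII, act mainly as repressors and pattern the developing forebrain: NR2F1 shapes area identity in the neocortex, and NR2F2 marks caudal ganglionic eminence and venous endothelium. NR2E1, also called TLX, maintains neural stem cells, NR2F6 is a repressor studied mostly in lymphocytes, and NR2C1 and NR2C2 are the testicular receptors, which also regulate globin genes. MEIS1 and MEIS2 are homeodomain proteins of the TALE class that recognise TGACAG and often bind beside PBX proteins.

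The sequences under the strongest summits at NR2F1 and NR2F2 are shown first, because they show what lay at the centre of the signal. Each run is 100 bases of the GRCh37 forward strand with the summit at base 51, read 5′ to 3′, and capitals mark TGACA, the first 5 bases of the MEIS hexamer, or its reverse complement TGTCA. Sites are numbered at each gene from the strongest down. At NR2F1 the 4 strongest sites and the promoter site read as follows.
NR2F1 site 1, chr5:93157664-93157763: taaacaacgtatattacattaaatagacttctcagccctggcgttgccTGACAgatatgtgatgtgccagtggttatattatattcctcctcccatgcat
NR2F1 site 2, chr5:92935327-92935426: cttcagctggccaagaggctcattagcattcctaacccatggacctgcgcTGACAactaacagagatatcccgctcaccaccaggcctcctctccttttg
NR2F1 site 3, chr5:93155590-93155689: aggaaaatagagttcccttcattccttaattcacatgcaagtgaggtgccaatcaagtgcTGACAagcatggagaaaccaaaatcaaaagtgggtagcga
NR2F1 site 4, chr5:93414209-93414308: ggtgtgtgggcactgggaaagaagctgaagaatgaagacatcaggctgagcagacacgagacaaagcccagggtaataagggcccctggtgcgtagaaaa
NR2F1 site 8, at the promoter, chr5:92918731-92918830: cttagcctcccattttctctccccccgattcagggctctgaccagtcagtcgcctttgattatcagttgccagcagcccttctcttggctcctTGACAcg

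At NR2F2 the 5 strongest sites were the following.
NR2F2 site 1, chr15:97080499-97080598: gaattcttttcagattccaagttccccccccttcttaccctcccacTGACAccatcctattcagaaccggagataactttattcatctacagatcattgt
NR2F2 site 2, chr15:96888783-96888882: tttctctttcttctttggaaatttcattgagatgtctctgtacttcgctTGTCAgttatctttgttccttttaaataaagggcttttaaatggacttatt
NR2F2 site 3, chr15:96905410-96905509: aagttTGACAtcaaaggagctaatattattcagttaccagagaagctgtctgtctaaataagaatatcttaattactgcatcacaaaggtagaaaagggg
NR2F2 site 4, chr15:97137392-97137491: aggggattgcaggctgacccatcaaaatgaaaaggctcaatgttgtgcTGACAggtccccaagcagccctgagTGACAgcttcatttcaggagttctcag
NR2F2 site 5, chr15:97236278-97236377: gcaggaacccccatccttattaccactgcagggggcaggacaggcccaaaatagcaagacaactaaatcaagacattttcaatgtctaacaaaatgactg
The nearest core was centred within 2 bp of the summit in 5 of these 10 runs and farther out in 3, and 2 runs held none. The base after it was often not the G of the hexamer.

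NR2F1 (ENSG00000175745) lies on the forward strand at chr5:92918928-92930317, with 3 exons and a body of 11390 bp. Its 13 sites were spread unevenly: 2 lay upstream of the transcription start site (TSS) of the canonical transcript and 11 downstream. Only 3 of the 13 had NR2F1 as the gene with the nearest protein-coding TSS. The other 10 all lay inside FAM172A, a neighbouring coding gene on the downstream side, and had POU5F2 or FAM172A as the nearest TSS. A site in a window is therefore a position near NR2F1, and which gene it acts on, if any, was not measured.

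The strongest NR2F1 site was chr5:93156657-93159048, in intron 8 of the 11-exon FAM172A, 239 kb downstream of the NR2F1 TSS. Its strength, the −log10 p that MACS2 gives a peak against input, was 952 in replicate 1 and 1232 in replicate 2, and the fold over input was 60.8 and 123. This placed it 31st of the 5169 sites, ordered by the −log10 p of the merged site. Its summit fell within a TGACAG, shown in the first run above. The third strongest site, chr5:93155119-93156287, lay only 2.07 kb away in the same intron, at 259 and 363, and its TGACA was followed by an A.

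The second strongest site was the strongest of those nearest to NR2F1 itself. It spanned chr5:92934102-92937489, 16.4 kb downstream of the TSS, past the last exon, within the unnamed noncoding gene ENSG00000289274. Its strength was 507 in replicate 1 and 641 in replicate 2, with a fold of 37.8 and 92.2, and it ranked 96th of all sites. The window held no TGACAG, and a TGACAA began at the summit.

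The promoter of NR2F1 was also bound, at a far lower level. Site 8, chr5:92918157-92919212, had its summit 147 bp upstream of the TSS, inside the antisense gene NR2F1-AS1, with a strength of 53.2 in replicate 1 and 48.2 in replicate 2. The fold there was 9.25 and 12.5. None of the consensus strings searched was found in its 500 bp window, and the nearest TGACA lay 45 bp from the summit. The remaining site nearest to NR2F1, site 11, lay 175.5 kb upstream in NR2F1-AS1, at 23.0 and 27.2.

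The other sites in FAM172A included site 4 in intron 1, 495 kb from the NR2F1 TSS, at 125 and 117. In intron 6, 4 sites fell within 11.0 kb of each other, from 301 kb to 312 kb downstream, and the strengths of their merged sites ran from 21.8 to 78.2. In all, 6 of the 13 NR2F1 sites had another site within 10 kb, against 11.5% of the 5169 sites.

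NR2F2 (ENSG00000185551) lies on the forward strand at chr15:96869167-96883492, with 3 exons in its canonical transcript and a body of 14326 bp. Its window held the TSS of no other protein-coding gene, and NR2F2 was the nearest for 14 of its 14 sites. Of these, 7 lay upstream and 7 downstream. No site lay within a coding gene. Of the 14, 0 had a neighbour within 10 kb, against 11.5% of all 5169 sites, so standing singly was common in the whole list. At NR2F1, 6 of the 13 sites had such a neighbour.

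The strongest NR2F2 site, chr15:97079159-97081876, lay in intergenic sequence 207 kb downstream of the TSS. Its strength was 1887 in replicate 1 and 2001 in replicate 2, with a fold of 116 and 240, and it ranked 5th of all 5169 sites. It held no TGACAG in 500 bp, and its summit fell on a TGACAC. The strongest site of the set thus carried the core of the MEIS element without its last base.

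Closer to the gene, site 2, chr15:96888184-96889414, lay 14.9 kb downstream of the TSS, just past the gene end, with a strength of 937 and 1072 and rank 32. Site 3, chr15:96904029-96906593, lay 31.5 kb downstream, with 624 and 910 and rank 68. Both overlapped unnamed noncoding genes. Sites at about this distance downstream thus carried strong signal at both paralogs, 16.4 kb from the TSS of NR2F1 and 14.9 kb from that of NR2F2.

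Farther out, site 4, chr15:97136922-97137975, lay 264 kb downstream, at 234 and 318. It carried a TGACAG at its summit and another centred 25.5 bp away, and the latter overlaps TGAGTGAC, a composite element of PBX and MEIS. Site 5, chr15:97235903-97237251, lay 362 kb downstream at 139 and 256, and had no TGACA in its 500 bp. The order of these 5 sites was the same in both replicates, though in replicate 2 site 6, at 278, exceeded site 5.

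The 7 upstream sites of NR2F2 were weaker, with a median strength of the merged site of 29.1 against 234 for the 7 downstream ones. The strongest, site 6, lay 501 kb upstream of the TSS at 117 and 278, and site 7 lay 485 kb upstream at 53.1 and 56.8. Site 8, 243 kb upstream, had 29.6 and 75.4, and site 9, 373 kb upstream, had 29.1 and 34.2. In these the value of replicate 2 was the higher each time.

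Of the weaker upstream sites, site 11 lay 223 kb away at 23.2 and 19.6, site 12 lay 65.5 kb away in NR2F2-AS1 at 21.0 and 19.5, and site 13 lay 294 kb away at 16.3 and 51.1. Downstream, site 10 lay 474 kb away at 24.6 and 33.1 and site 14 lay 297 kb away at 14.3 and 22.9. Site 14 was the least certain in position, since its replicate summits lay 419 bp apart.

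The NR2F2 promoter differed from that of NR2F1 in having no reproducible site within 1 kb of the TSS. A peak 950 bp upstream of the canonical TSS was called in replicate 2 alone, at a strength of 3.95. Between promoter and site 2, a peak 8.53 kb downstream of the TSS, still within the gene, was present in both replicates at 14.5 and 13.9 but was not in the reproducible list. Another, 6.76 kb upstream of the TSS in NR2F2-AS1, had 7.85 in replicate 1 and 43.9 in replicate 2.

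**Figure D1:**
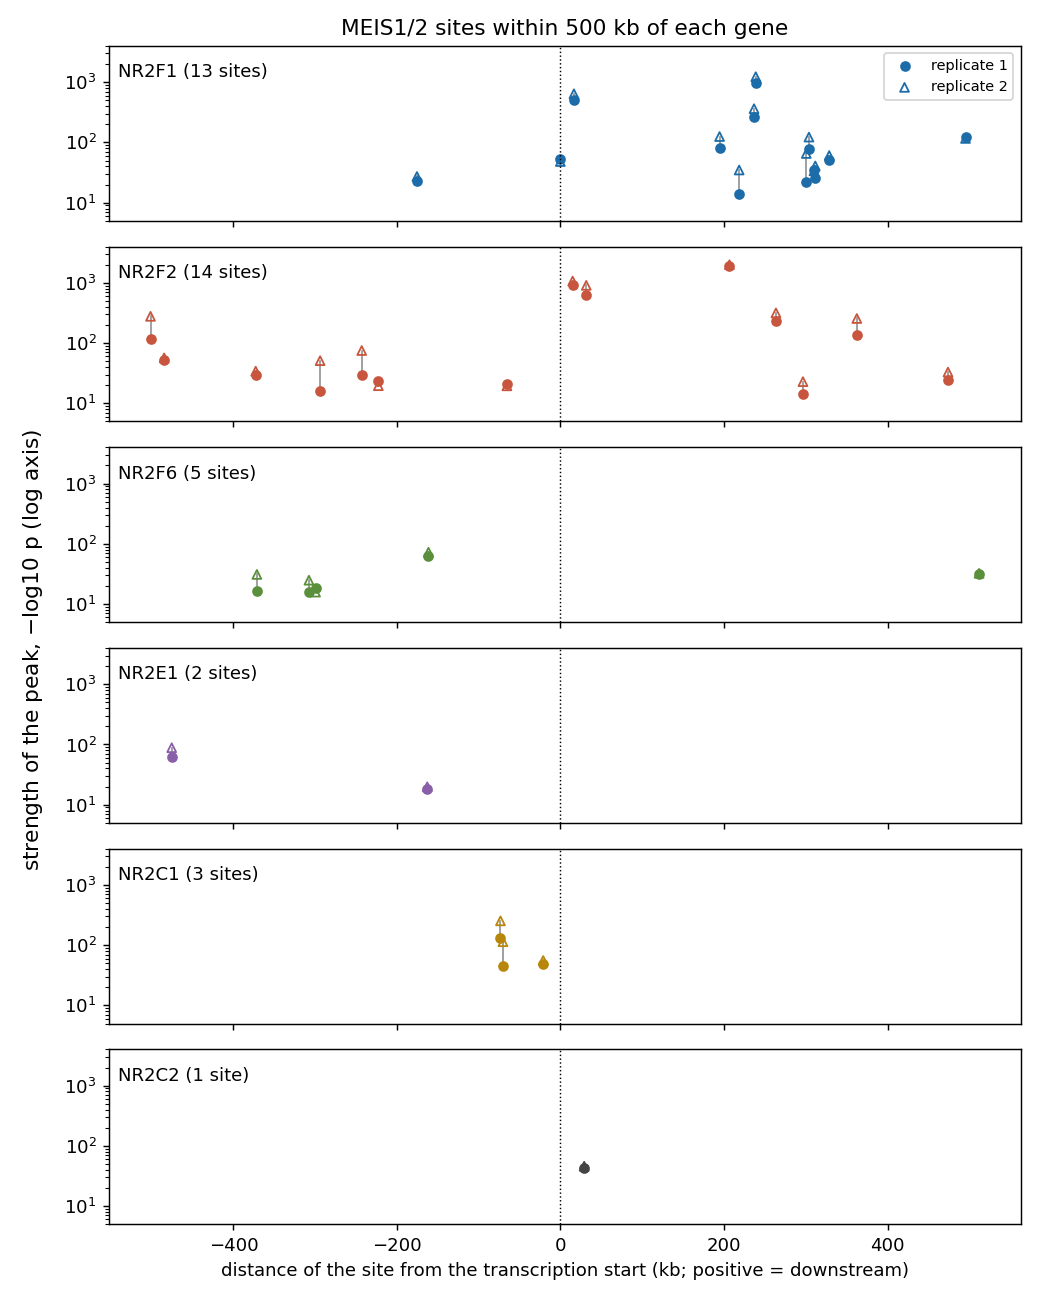
Each panel plots the reproducible sites of a gene by the distance of the summit from the TSS in kb, with downstream positive, against strength as −log10 p on a log axis; filled circles are replicate 1, open triangles replicate 2, and a grey line joins the values of a site. The strongest sites of NR2F1 and NR2F2 lie downstream, near 16.4 kb and 239 kb for NR2F1 and near 14.9 kb and 207 kb for NR2F2, and NR2F6, NR2E1, NR2C1 and NR2C2 have few sites.

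NR2F6 (ENSG00000160113), on the reverse strand at chr19:17342692-17356728, lies in a gene-rich region with 30 other protein-coding TSS in its window. It was the nearest gene of 0 of its 5 sites. The strongest, chr19:17517619-17518485, lay 161 kb upstream of the NR2F6 TSS within MVB12A and 1.70 kb from the TSS of BST2, with a strength of 63.6 in replicate 1 and 72.5 in replicate 2. The other 4 merged sites ranged down to 15.6. At the NR2F6 promoter, peaks 795 bp and 744 bp upstream of the TSS were called in replicates 1 and 2, at 4.05 and 5.38, and were not in the reproducible list.

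NR2E1 (ENSG00000112333), at chr6:108487226-108510009, had 2 sites, and for neither was it the nearest gene. The stronger, chr6:108011312-108012747, lay 475 kb upstream in intergenic sequence with SCML4 as the nearest gene, at 61.5 and 88.5. The closest strong signal to NR2E1 was not in the list of reproducible sites at all. A peak 7.65 kb upstream of the TSS, within OSTM1, reached 50.3 in replicate 1 and 57.7 in replicate 2, with summits 22 bp apart and a fold of 7.83 and 15.4. Its lower value exceeded that of 71.0% of the listed sites, and the reason it is outside the list was not tested.

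NR2C1 (ENSG00000120798), on the reverse strand at chr12:95414005-95467404, had 3 sites, each in an intron of its upstream neighbour FGD6. The strongest, chr12:95539912-95542164, lay in intron 5, 73.4 kb upstream of the NR2C1 TSS and 70.5 kb from that of FGD6, at 134 and 253. Site 3, 3.04 kb away, had 45.4 and 114, and site 2, 21.1 kb upstream of the TSS in intron 14, had 48.1 and 55.6. For both of these NR2C1 was the nearest gene.

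NR2C2 (ENSG00000177463), at chr3:14989090-15095107, had a single site, chr3:15017623-15018434, and it was the only site of the 38 that lay within the body of the gene it was assigned to. It fell in intron 1, 29.0 kb downstream of the TSS, at 42.8 and 45.8. Its TGACAG, read on the reverse strand, lay 37.5 bp from the summit.

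These counts were set beside those of 200 protein-coding genes whose bodies were closest in length, for which the median was 1 site in each of the 6 comparisons. Over all 20098 protein-coding genes on chromosomes 1 to 22 and X, 67.8% had at least 1 site in such a window, so that having a site was common. The 13 sites of NR2F1 and 14 of NR2F2 exceeded every gene of like length, whose highest counts were 7 and 9. As many sites as NR2F1 or more were found at 0.114% of all protein-coding genes, or 23 genes in 15 separate loci, and as many as NR2F2 or more at 0.0846%. FAM172A, POU5F2 and KIAA0825 were among the 23 because their windows overlap that of NR2F1.

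The other receptors stood lower in the same comparison. NR2F6 stood at the 96.5th percentile of genes of like length, NR2C1 at the 85th, NR2E1 at the 68th and NR2C2 at the 41.75th. When genes were matched on the number of protein-coding TSS in the window instead, NR2F1 stood at the 99.7th percentile, NR2F2 at the 99.4th and NR2F6 at the 99.8th. NR2F6 was the nearest gene of none of its sites, and its count changed with the list used. Among the 5169 strongest peaks of replicate 1 alone it had 3, at the 84.5th percentile of genes of like length. With an IDR of 0.001 or less it had 2, at the 85.75th. All 5 of its sites were peaks in both replicates, but so is every site of the reproducible list by construction, and nothing is read from it. These percentiles describe the genes and test nothing, since the genes were picked for such values.

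**Figure D2:**
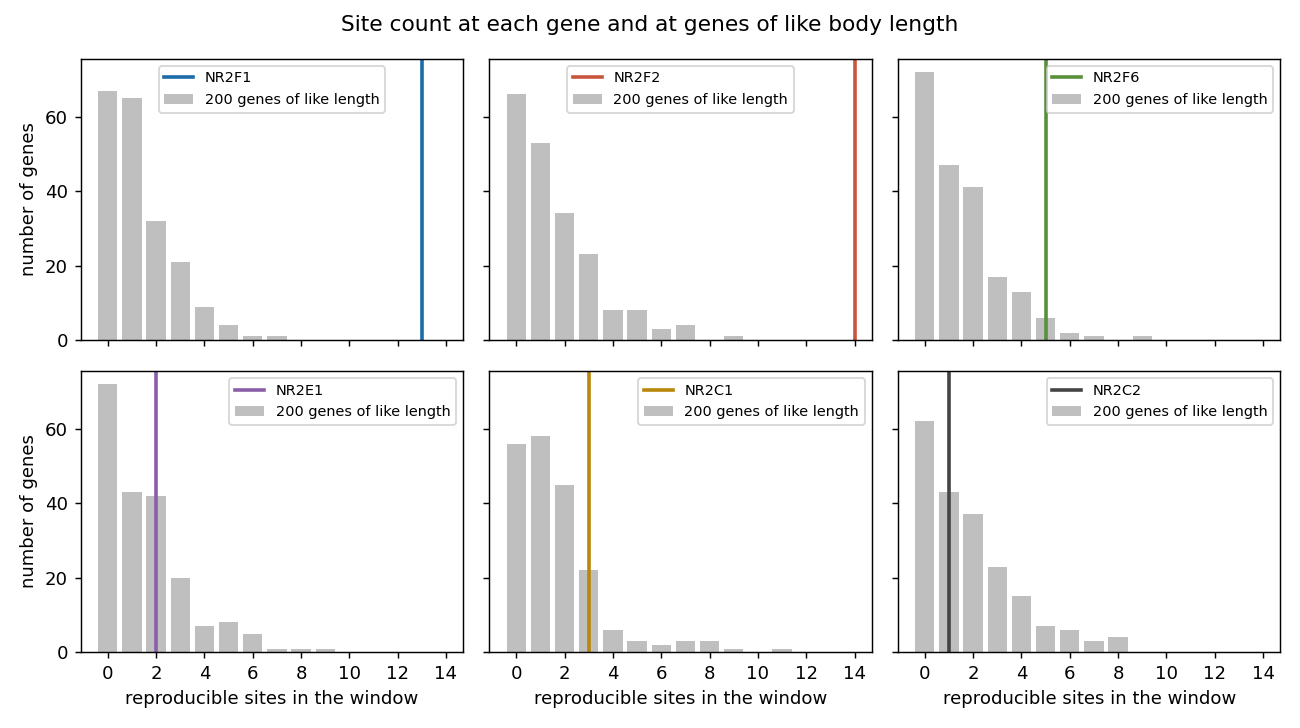
Each panel shows how many of the 200 protein-coding genes of like length (grey bars, number of genes) had each number of reproducible sites in a window of 500 kb on either side of the gene body, with a coloured line at the count of the named gene. The lines of NR2F1 at 13 and NR2F2 at 14 lie beyond all bars, which end at 7 and 9, while those of NR2E1, NR2C1 and NR2C2 fall among them.

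The window also sets what is counted, and sites close to its edge show this. At NR2F2 the outermost upstream site inside lay 497 kb from the gene body at a strength of 117, and the next one outside lay 564 kb away at 232. At NR2F1 the nearest upstream site outside lay 591 kb away at 148. With 100 kb on either side, NR2F1 kept 2 sites, those at the promoter and 16.4 kb downstream, and NR2F2 kept 3, which were sites 2 and 3 and the weak upstream site 12, while NR2F6 and NR2E1 kept 0.

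The replicates ordered the 38 sites alike. Spearman's rho of strength between replicates was 0.90 over the 38 sites, which share the same libraries, and 0.78 over all 5169. Nothing is read from these values, because the list was selected for agreement between the same 2 replicates. The genes were also picked with site strength known. The strength was higher in replicate 2 at 32 of the 38, and the fold over input at 38 of 38, with medians of 6.89 for replicate 1 and 14.5 for replicate 2. Fold was also higher in replicate 2 at 5036 of the 5169 sites, so the difference was not particular to the receptors. Summits of a site lay a median of 8.5 bp apart.

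With 2 samples there is no replicate error beyond the pair of values given for each site. The largest ratio of strength between replicates was 3.13, at site 13 of NR2F2, and the smallest was 0.846. Over all 5169 sites the ratio ran from 0.230 to 6.81. It also carries the higher values of replicate 2, with a median of 1.32 over the 38 sites. The ratio therefore does not measure the error between sites within a replicate, and differences among sites of similar rank cannot be resolved. The strongest sites at NR2F1 and NR2F2 exceeded the median strength of 46.7 over the 38 sites many times over in both replicates. The median over all 5169 sites was 29.3. Of the 38, 9 were among the strongest 10% of all sites, 5 of them at NR2F2, 3 at NR2F1 and 1 at NR2C1.

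**Figure D3:**
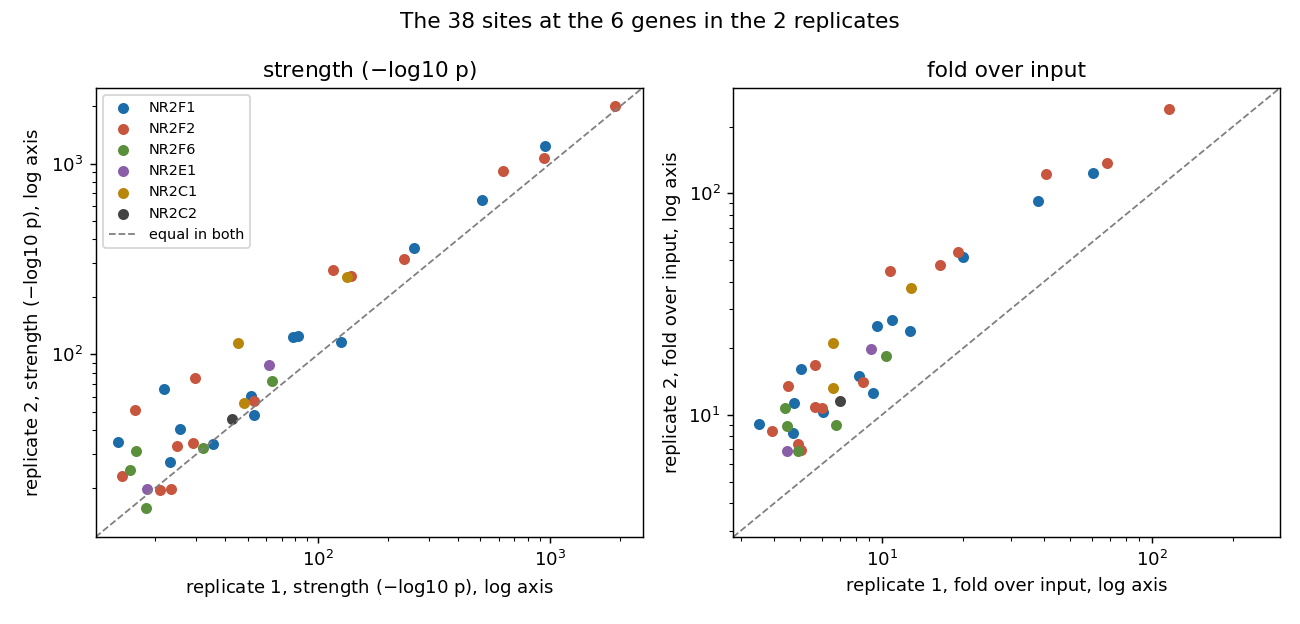
The 38 sites are plotted by their value in replicate 1 (horizontal) and replicate 2 (vertical), as strength in −log10 p on the left and as fold over input on the right, all axes logarithmic, with colours for genes and a dashed line where both are equal. For strength 32 of 38 points lie above the line, and for fold all 38 do.

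The looser replicate peak lists held 141 peaks of replicate 1 and 219 of replicate 2 with summits in the 6 windows. Of these, 66.7% in replicate 1 shared 1 bp or more with a peak of replicate 2, against 49% of all replicate 1 peaks. In replicate 2 the shares were 42.5% and 38%. Nothing is read from the difference, because windows chosen for reproducible sites must hold shared peaks. Outside the reproducible list, 103 peaks of replicate 1 and 180 of replicate 2 remained in the windows, with a median strength of 4.86 and 4.52.

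A few of these unlisted peaks were much stronger in replicate 2 than in replicate 1. At NR2F1, a peak 337 kb upstream had 12.5 in replicate 1 and 57.8 in replicate 2. At NR2F2, one 374 kb downstream had 12.1 and 52.4. In NR2F1-AS1, a peak 205 kb upstream of NR2F1 had 2.13 and 21.1. Upstream of NR2F1, where only 2 sites were listed, peaks were thus called in both replicates outside the list.

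The MEIS hexamer TGACAG, searched on both strands in 500 bp centred on the summit, was found at 19 of the 38 sites, or 50% (Wilson 95% interval 34.8% to 65.2%), against 58.3% of all sites. The share was 5 of 13 at NR2F1 and 9 of 14 at NR2F2. Thus the hexamer was no more frequent here than at all sites. Among the 5 strongest sites at each of NR2F1 and NR2F2, 4 of 10 held it, and 59.5% of the strongest 10% of all sites did. These 10 sites are too few to tell a like share from a lower one, and their genes were picked with site strength known.

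After the sequences above had been seen, the shorter core TGACA was counted within 50 bp of the summit. It was present at 30 of the 38 sites, or 78.9% (63.7% to 88.9%), against 70.5% of all sites, whose share lies inside the interval. At NR2F1 and NR2F2, 13 of the 27 sites lacked TGACAG, and 11 of these 13 had TGACA within 50 bp, while over all sites without TGACAG the share was 52.5%. At NR2F1 the nearest core within 50 bp read TGACAA at 4 sites, TGACAG at 3, TGACAC at 2 and TGACAT at 2. At NR2F2 it read TGACAG at 5, TGACAT at 4, TGACAA at 2 and TGACAC at 1. This core was chosen on these sequences, so the counts describe them only.

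**Figure D4:**
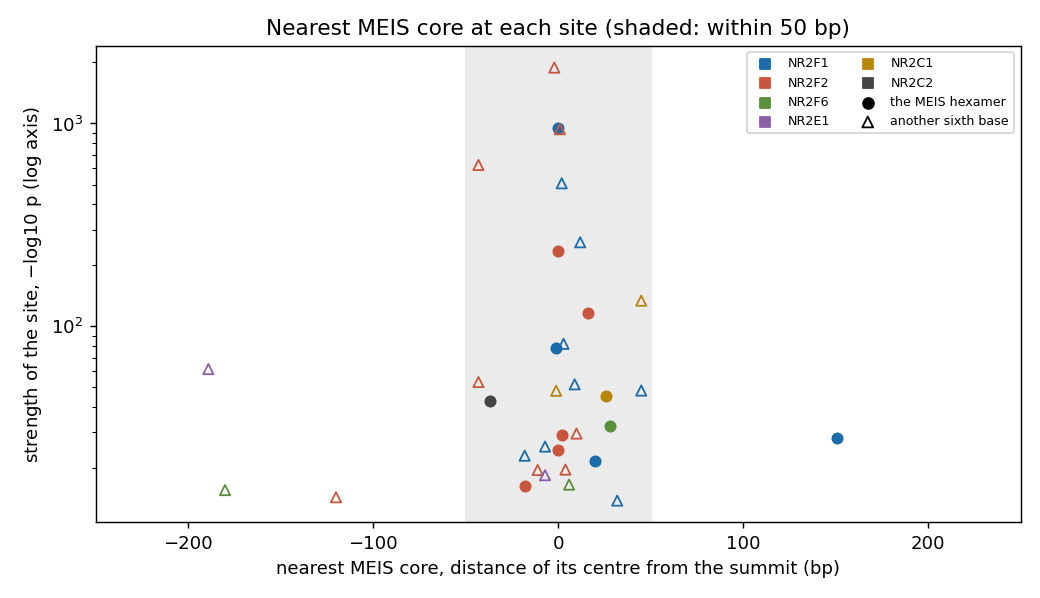
Sites with a TGACA core in 500 bp are plotted by the distance of the centre of the nearest core from the summit in bp (horizontal) and by strength of the site as −log10 p on a log axis (vertical); filled circles are cores that continue to TGACAG, open triangles those with another sixth base, and the shaded band is 50 bp on either side. In 30 of the 38 sites the core lies in the band, including the strongest site of NR2F2, where it is an open triangle.

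Among strings of candidate partners, those of TEAD, SOX and LHX were about as frequent at the 6 genes as elsewhere. PBX-MEIS and AP-1 strings had lower shares, from few sites. The TEAD string GGAATG was present at 39.5% of the 38 sites and 38.2% of all sites, the SOX strings ACAAAG or ACAATG at 65.8% and 71.0%, and the LHX string TAATTA at 18.4% and 18.2%. PBX-MEIS composites, TGATTGAC or TGAGTGAC, were at 5.26% and 11.2%, and AP-1 strings, TGACTCA or TGAGTCA, at 5.26% and 11.8%, each being 2 of the 38. AGGTCA, the element that nuclear receptors themselves bind, was at 34.2% and 37.1%, so a receptor element was no more common beside the receptors' own genes. In each case the share over all sites lay within the 95% interval of the 38. For PBX-MEIS and AP-1 that interval ran from 1.46% to 17.3%, too wide to tell a like share from a lower one.

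The other genes of the NR2 group all had fewer sites than NR2F1 and NR2F2. Their counts ran from 0 to 4, beside 5 at NR2F6 and 1 to 3 at NR2E1, NR2C1 and NR2C2. Of HNF4A, HNF4G, RXRA, RXRB, RXRG and NR2E3, 4 of 6 had a site, close to the 67.8% of all protein-coding genes, with a median of 2.5, and HNF4A and RXRG had 0. The strongest lay in RXRA, the common heterodimer partner of nuclear receptors, 111 kb downstream of its TSS, at 90.5 and 61.9. For NR2E3, a photoreceptor gene, it lay 176 kb upstream at 78.9 and 50.3. HNF4G had 4 sites, the strongest 437 kb downstream with a merged strength of 32.6, and RXRB had 3, the strongest 305 kb upstream at 28.8. With an IDR of 0.001 or less, NR2E3 had 3 sites, and HNF4G and NR2F6 had 2 each. Beside genes of like length, RXRB stood at the 88.25th percentile, NR2E3 at the 87th and HNF4G at the 78.75th. RXRA stood at the 56.5th, RXRG at the 13.25th and HNF4A at the 12th.

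Genes whose products act with NR2F or NR2E receptors had a site in 6 of 7 cases, where 67.8% of all protein-coding genes had one. Their median was 2 sites against 1 over all protein-coding genes, which takes no account of length. Beside genes of like length, RERE stood at the 88.25th percentile, ATN1 at the 68th, BCL11A at the 62.25th and NCOR1 at the 56.25th. ZFPM2 stood at the 41.75th, BCL11B at the 40.5th and KDM1A at the 16.75th. In counts, ZFPM2 had 3 sites against a median of 4, and NCOR1 had 2 against 2. RERE, a coregulator that works with NR2F2, had 7, the strongest within the gene 239 kb downstream of its TSS, at 891 and 1078, rank 37. ZFPM2, a zinc finger cofactor of NR2F2, had 3, the strongest within the gene 265 kb downstream at 1044 and 1086, rank 20. BCL11A, a zinc finger repressor that binds NR2F proteins, had an intragenic site 12.2 kb downstream of its TSS, at 44.2 and 74.9. For NCOR1 the strongest lay 323 kb downstream at 126 and 111, nearest to ADORA2B. For BCL11B and ATN1 the strongest merged strengths were 24.5 and 21.2, each with another gene as nearest, and KDM1A had 0 sites.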

How the data were processed

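Untreated hNSC were profiled as 2 MEIS ChIP and 2 Input samples, grouped by title; the replicates came from separate batches of cells processed in parallel. Per the labels, the authors trimmed paired reads of 36 bp with cutadapt 1.16, mapped them to GRCh37 (hg19) with Bowtie2 2.3.0, filtered on a mapping quality of 30 or more with SAMtools 1.2, removed duplicates with Picard 2.15.0 and called peaks against input with MACS2 at a p-value of 0.01. IDR selected reproducible sites. Reads in near-identical repeats are lost by the mapping filter. Which of the study's alternative washes each replicate had is unknown, and so is depth, so intervals cover the number of sites alone.

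The deposited peak lists hold, for each peak, the authors' −log10 q, −log10 p and linear ratio (fold) over input. The deposited site list holds a scaled IDR score, −log10 p, −log10 IDR and the summit position. Its 8 per-replicate columns were not used; replicate values are those of the strongest overlapping peak. The scaled score is capped, so the stricter list used a global IDR of 0.001 or less from its own column.

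Genes came from GENCODE 44 on GRCh37, and a gene's TSS is that of its canonical transcript. Sequences were read from the GRCh37 genome, and 0 peaks lay past a chromosome end. Counting and string searches were tested on simulated data. Python 3.11.15, numpy 2.4.6, scipy 1.17.1, Biopython 1.88 and matplotlib 3.10.9 were used. No test was run. Named are the 6 genes, the 5 strongest sites at NR2F1 and NR2F2, every site nearest to a listed gene, the strongest site at each of the others, and fixed lists of NR2 and partner genes with their strongest site. Further sites, unlisted peaks and the TGACA core were chosen after their values were seen. Of those the rule names, 1 partner gene and 1 of the 5 strongest sites at NR2F1 are not reported here. The members and lists were chosen with earlier results of these data known.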

Additional observations from a re-analysis of the deposited data

How the results depend on the processing

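Of 126 values recomputed under alternatives, 85 moved little and 41 moved. Leaving out a replicate meant using the 5169 strongest peaks of the other replicate in place of the list. The 38 sites became 9 with 100 kb and 63 with 1 Mb on either side, by construction. They became 43 without replicate 1, 35 without replicate 2, and 28 to 38 under the other alternatives. The percentile among genes of like length stayed at 100 for NR2F1 and NR2F2 under every alternative (range without a replicate 100 to 100), except with 100 kb, at 97.5 and 99, and genes matched on TSS number, at 99.7 and 99.4. The percentile of NR2F6 fell to 37.75 with 100 kb, to 84.5 without replicate 2 and to 85.75 with an IDR of 0.001 or less. The overlap share of replicate 1 peaks went from 66.7% to 88.5% among peaks with a −log10 p of 5 or more and to 50.4% when summits had to lie within 100 bp; for replicate 2 peaks it went from 42.5% to 65.8%, to 32.4%, and to 54.8% with 100 kb. The share with TGACAG was 39.5% to 55.6% under the other alternatives, with 45.7% to 46.5% when a replicate was left out. Shorter windows lower this share over all sites too. In 200 bp windows it was 42.1% at the 6 genes and 46.4% over all sites, and in 100 bp windows 39.5% and 39.0%. The added TGACA within 50 bp gave 78.9%. No paired analysis was possible because no test was made and the Input samples carry no values of their own. With 2 samples and no depth, differences between sites of like strength cannot be resolved.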

Other observations

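Among the 703 pairs of 500 bp windows at the 38 sites, sites 1 and 4 of NR2F6 were alike in sequence: they aligned over 341 bases in the same orientation with 94.1% identity, whereas the next most similar pair, sites 7 and 12 of NR2F1, aligned over 40 bases. Both NR2F6 windows held AP-1 strings, which no other window at the 6 genes did, and neither held TGACA. Site 1 lay within MVB12A near BST2 and had a strength of 63.6 in replicate 1 and 72.5 in replicate 2, while site 4, in intron 12 of NIBAN3, had 18.1 and 15.8. What part the shared sequence has in the peak calls was not tested.

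The unlisted peak upstream of NR2E1 was not alone in these data. Across the genome 23 peaks of replicate 1 outside the reproducible list overlapped a replicate 2 peak with both at a −log10 p of at least 50.3, the lower value of the NR2E1 peak.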
